A study of Mus musculus with 9 samples.

Results

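The 9 genes described here make, reuse and supply the building blocks of glutathione: Gclc, Gclm, Gss, Gsr, Slc7a11, Slc3a2, Ggct, Oplah and Ggt1. They were chosen by gene symbol from the 24411 genes of the deposited count table, and all 9 were among the 11199 genes that passed the filter on low counts. The table holds poly(A) RNA from the livers of 9 mice at 3 months of age, 3 in each of 3 groups. All mice carried Atg7 alleles flanked by loxP sites on both copies, on a C57BL/6 background. The livers called cont. had no Cre recombinase, and the Atg7-KO livers had Cre under the albumin promoter, which removes Atg7 from hepatocytes. The third group, called S351A, had the floxed Atg7, the same Cre, and in addition a knock-in on both copies of the p62 gene that replaces a serine by alanine and weakens the hold of p62 on KEAP1. For S351A replicates 2 and 3, the genotype label gives S351A for one copy and S352A or S353A for the other copy, whereas their titles give S351A for both, and the titles were followed. Replicate 1 is the only S351A liver whose label and title name the same alleles.

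Glutathione is a tripeptide of glutamate, cysteine and glycine that hepatocytes make in large amounts. GCLC, the catalytic subunit, and GCLM, the modifier subunit, form glutamate-cysteine ligase, which carries out the rate-limiting step, and GSS adds glycine. Cysteine is usually the scarce building block, and it can be made from methionine or taken up as cystine by a carrier built from the light chain SLC7A11 and the heavy chain SLC3A2. Several of these genes are textbook targets of NRF2, the transcription factor that KEAP1 holds in check, and Slc7a11 is also a textbook target of ATF4.

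The libraries held 1875310 to 15426600 counts in cont., 1945470 to 3675040 in Atg7-KO and 713835 to 792366 in S351A. Every S351A library was smaller than every other library, so depth and the p62 mutation cannot be told apart. Levels are given as CPM, counts relative to the library total after TMM scaling, on which scale 3 counts corresponded to between 0.267 and 3.70 CPM. Summed hepatocyte markers reached 47368 to 104810 CPM in cont., 32115 to 39410 in Atg7-KO and 30239 to 44181 in S351A, and 6 of 7 fell in Atg7-KO. Markers of ductular cells summed to 77.6 to 128 CPM in cont., 898 to 1290 in Atg7-KO and 820 to 1282 in S351A, and 8 of 8 tested rose in Atg7-KO. Stellate cell and matrix markers summed to 283 to 582 CPM in cont., 1297 to 1755 in Atg7-KO and 1153 to 1693 in S351A (5 of 8 tested rose), and macrophage markers to 217 to 325, 293 to 394 and 283 to 298 CPM (4 of 9 rose and 1 fell). Of 6 endothelial markers 1 rose and 3 fell, with sums of 165 to 255, 166 to 198 and 148 to 194 CPM, and of 3 erythroid markers 2 fell, with sums of 320 to 892, 92.3 to 203 and 149 to 216 CPM. Markers of lymphocytes and neutrophils summed to at most 16.4 CPM in any liver. Atg7 itself fell by 0.74 on the log2 scale in Atg7-KO (edgeR's quasi-likelihood test, adjusted p 0.00757), and Nqo1, the NRF2 target used as a reference, rose by 4.46 (adjusted p 4.69e-06). By Xist and Y-linked genes, 1 mouse of cont. and 2 mice of each other group were female.

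The first question was how these genes stood once hepatocytes had lost Atg7. In Atg7-KO livers, 7 of the 9 genes were called higher than in cont., 1 was called lower and 1 was not called. A call required an adjusted p under 0.05 and a fold change above 1.5 in edgeR's quasi-likelihood test, and 19.9% of all tested genes were called higher and 18.1% lower by the same rule. The median log2 fold change of the 9 genes was 1.30, beside -0.03 over all tested genes. The libraries of both groups did not overlap for any of the 9 genes, with 8 higher and 1 lower in Atg7-KO, and 26.7% of all tested genes were separated in the higher and 24.9% in the lower direction. Slc7a11 and Ggt1 had at most 4 counts in any cont. library and passed the filter on low counts only through the other groups. Their calls and separations are thus not independent of the filter, and they are included in the counts and the median above. The 9 genes were also chosen with earlier results of these data known. In a bulk liver, fewer cells of a type and less RNA per cell cannot be told apart. The marker values above moved with these changes, and their part in them was not tested.

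**Figure D1:**
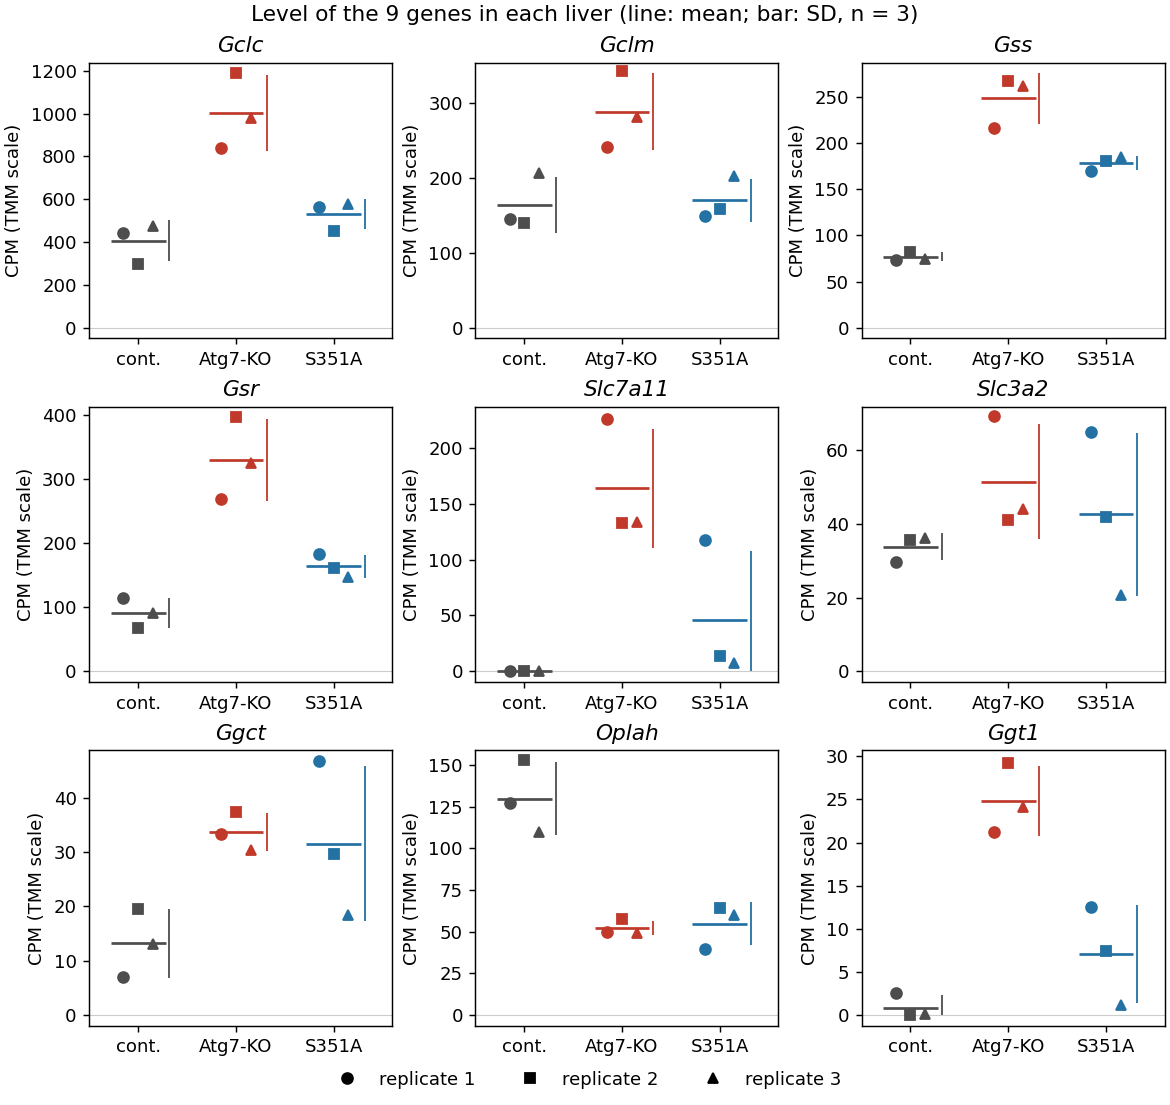
Level of each of the 9 genes in CPM on the TMM scale (linear vertical axis, a different range in each panel) in every liver of cont., Atg7-KO and S351A, with the mean as a line and the SD as a bar cut at 0 (n = 3). Oplah is the only gene whose 3 Atg7-KO livers all lie below the cont. livers, and for Gclc, Gclm, Gss, Gsr, Slc7a11 and Ggt1 all S351A livers lie below all Atg7-KO livers.

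Gclc encodes the catalytic subunit and lies at chr9:77754535-77794485 in mm10, + strand. The cont. livers stood at 445, 299 and 477 CPM, those of Atg7-KO at 838, 1192 and 978, and those of S351A at 565, 452 and 580. The Atg7-KO livers all lay above the others, and 2 of the 3 S351A livers lay above every cont. liver. Gclc rose 2.46-fold in Atg7-KO (log2 1.30, SE 0.25, adjusted p 0.00168 by edgeR's quasi-likelihood test).

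Gclm, the modifier subunit, lies at chr3:122245557-122270732, + strand, and 2 minor annotated transcripts overlap it. Its level was 145, 139 and 206 CPM in cont., 241, 342 and 281 in Atg7-KO, and 149, 158 and 202 in S351A. The S351A livers overlapped the cont. livers along their whole range. In Atg7-KO, Gclm rose 1.76-fold (log2 0.81, SE 0.24, adjusted p 0.0163 by edgeR's quasi-likelihood test), the smallest change among the genes called. This call was lost when 1 of 3 libraries was left out, namely replicate 2 of cont. (adjusted p 0.0597), replicate 2 of Atg7-KO (0.0896) or replicate 3 of Atg7-KO (0.0527), in a range over all alternatives from 5.25e-04 to 0.0896.

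The proportion of both ligase subunits was read from their counts within each library, where library scaling cancels. The ratio of Gclm to Gclc counts was 0.329, 0.466 and 0.432 in cont., 0.288, 0.287 and 0.288 in Atg7-KO, and 0.268, 0.352 and 0.352 in S351A. All Atg7-KO livers lay below the cont. livers. They differed among themselves by less than counting error, which was 0.051 to 0.066 on the log2 scale for each of them, 0.036 to 0.11 in cont. and 0.13 to 0.15 in the shallower S351A libraries. The mean log2 ratio with its SD (n = 3) was -1.31 ± 0.27 for cont., -1.80 ± 0.0022 for Atg7-KO and -1.64 ± 0.23 for S351A. The difference of -0.49 between Atg7-KO and cont. had p = 0.10 in a two-sided exact permutation test, the smallest that 3 against 3 can give. Against Atg7-KO, S351A differed by 0.16 (exact p = 0.40), and against cont. by -0.33 (exact p = 0.30). Within the same-numbered pairs of S351A and cont., the differences were -0.30, -0.40 and -0.30, so S351A was lower in 3 of 3 pairs (paired exact p = 0.25, the smallest that 3 pairs allow). Over all genes these pairs correlated with r from 0.16 to 0.24, beside up to 0.21 for libraries with different numbers. The labels do not say what a number shares, so the pairing is uncertain.

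**Figure D2:**
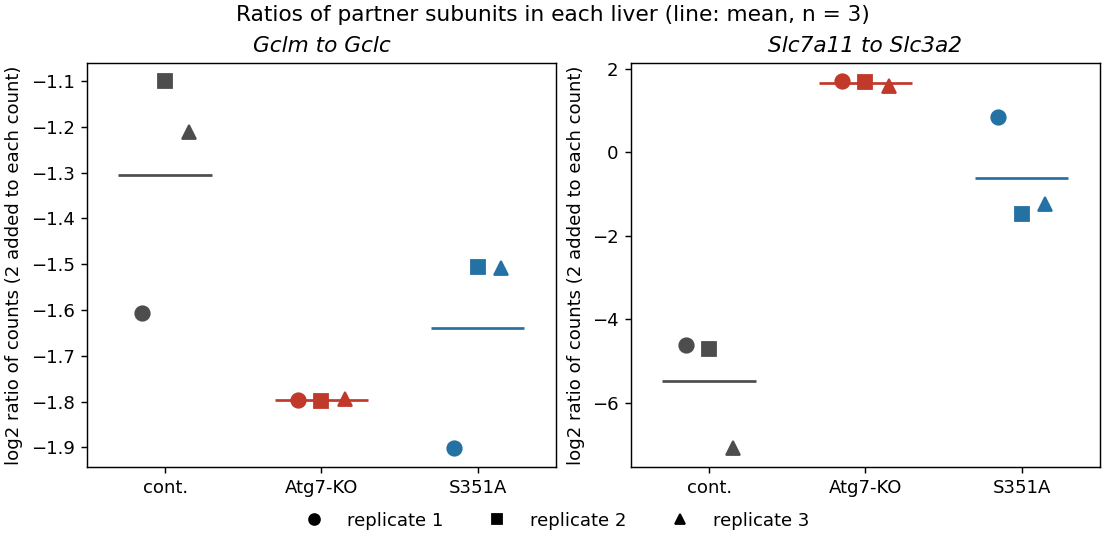
Log2 ratio of counts of Gclm to Gclc (left) and of Slc7a11 to Slc3a2 (right) in every liver, with 2 added to each count and the group mean as a line (n = 3). The 3 Atg7-KO livers coincide near -1.80 for the ligase subunits and near 1.65 for the cystine carrier, whereas replicate 1 of S351A lies apart from the other 2 in both panels. Counting error is larger in S351A, at 0.13 to 0.15 on the left and 0.24 to 0.69 on the right, than in Atg7-KO, at 0.051 to 0.066 and 0.095 to 0.17. The cont. points on the right rest on 0, 2 and 1 counts of Slc7a11, so they depend on the 2 added counts. Their counting error is 1.03 and 1.44 in replicates 2 and 3 and undefined in replicate 1.

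Gss, glutathione synthetase, lies at chr2:155563181-155592810, - strand, where it overlaps Acss2 and 2 antisense genes. Since the strand setting of the counting was not stated, reads of Gss and of these neighbours may not be separated. Its level was 73.2, 82.5 and 74.8 CPM in cont., 216, 267 and 262 in Atg7-KO, and 170, 180 and 185 in S351A. The 3 groups did not overlap at all, and among the 9 genes Gss had the smallest SD relative to its mean in both cont. and S351A. Gss rose 3.23-fold in Atg7-KO (log2 1.69, SE 0.19, adjusted p 4.57e-05 by edgeR's quasi-likelihood test).

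Gsr, glutathione reductase, returns oxidised glutathione to its reduced form with NADPH and lies at chr8:33652523-33698163, + strand. Its level was 114, 67.1 and 91.4 CPM in cont., 269, 397 and 326 in Atg7-KO, and 184, 162 and 148 in S351A. As for Gss, the S351A livers formed a separate band between the other groups. The rise in Atg7-KO was 3.64-fold (log2 1.87, SE 0.25, adjusted p 1.34e-04 by edgeR's quasi-likelihood test).

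Slc7a11, the light chain that carries cystine in exchange for glutamate, lies at chr3:49892526-50443614, - strand, with several annotated pseudogenes inside it. The 3 cont. libraries held 0, 2 and 1 counts, in totals of 1875310, 3554760 and 15426600. The Atg7-KO livers stood at 225, 132 and 133 CPM and the S351A livers at 117, 13.6 and 7.35 CPM, on 103, 11 and 6 counts. The gene was at the limit of detection in every cont. liver and well measured in every Atg7-KO liver, and replicate 1 of S351A stood far above the other S351A livers. With counts pooled within groups, the ratio of Atg7-KO to cont. was 918 (95% exact interval 314 to 4458, counting error only). Leaving out cont. replicate 3 gave 390, leaving out cont. replicate 2 gave 2253, and leaving out any other of these libraries gave 693 to 1016. The call had an adjusted p of 6.39e-05 in edgeR's quasi-likelihood test.

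Slc3a2, the heavy chain that brings SLC7A11 and several other light chains to the membrane, lies at chr19:8706882-8723369, - strand. Its level was 29.7, 35.7 and 36.1 CPM in cont., 69.3, 41.0 and 44.1 in Atg7-KO, and 65.0, 41.9 and 20.8 in S351A. All Atg7-KO livers lay above all cont. livers, by a narrow margin for 2 of them, and the S351A livers reached from below every cont. liver to near the highest Atg7-KO liver. The log2 difference between Atg7-KO and cont. was 0.60 (95% interval -0.07 to 1.28, adjusted p 0.146 by edgeR's quasi-likelihood test), short of a call. With total library size as the scaling it was 1.16 (adjusted p 0.0105) and was called, and with the 20 most abundant genes left out of the library size it was 1.04 (adjusted p 0.0187) and was called too, in a range over all alternatives from 0.0105 to 0.519. These scalings moved the median of all genes by 0.545 and 0.435.

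Both chains were compared in the same way as the ligase subunits. The ratio of Slc7a11 to Slc3a2 counts was 3.23, 3.19 and 2.98 in the Atg7-KO livers, and 1.78, 0.361 and 0.421 in the S351A livers. No S351A liver reached the ratio of any Atg7-KO liver, replicate 1 included. The mean log2 ratio was 1.65 ± 0.063 in Atg7-KO (SD, n = 3) and -0.63 ± 1.27 in S351A, a difference of -2.28 with the smallest p that the two-sided exact permutation test can give here, 0.10. Replicate 1 of Atg7-KO and of S351A had the highest levels of both chains in its group. These livers also had the highest ductular marker sum, 1290 and 1282 CPM, and the lowest hepatocyte marker sum, 32115 and 30239 CPM. Replicate 1 of cont. likewise had the highest ductular sum of its group, 128 CPM, and the lowest hepatocyte sum, 47368 CPM. Its chains went the other way, with the lowest Slc3a2 level of that group, 29.7 CPM, and 0 counts of Slc7a11. Slc7a11 was at the limit of detection in every cont. liver. Whether these markers and both chains are related was not tested.

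The promoter windows of these genes, from 250 bases before to 50 bases after the annotated start, were taken from RefSeq (GRCm38.p6, the assembly on which mm10 rests) for 6 of the 9 genes, which have 9 windows. The set of promoter windows used here held none for Gclc, Gsr and Oplah. Below stand the windows of both carrier chains, since one chain rose from near 0 and the other was not called, of Gclm as a ligase subunit, and of Gss, which separated all 3 groups. Capitals mark matches, on either strand, to TGACNNNGC, the core of the antioxidant response element, or to TGATGCAAA, an amino acid response element that was added after the values had been seen.
Slc7a11: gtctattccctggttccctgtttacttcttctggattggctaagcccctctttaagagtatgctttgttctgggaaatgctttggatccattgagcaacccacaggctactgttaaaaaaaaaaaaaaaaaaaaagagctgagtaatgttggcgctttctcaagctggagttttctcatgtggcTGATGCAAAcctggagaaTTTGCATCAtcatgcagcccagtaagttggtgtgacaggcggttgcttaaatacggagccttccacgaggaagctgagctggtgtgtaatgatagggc
Slc3a2: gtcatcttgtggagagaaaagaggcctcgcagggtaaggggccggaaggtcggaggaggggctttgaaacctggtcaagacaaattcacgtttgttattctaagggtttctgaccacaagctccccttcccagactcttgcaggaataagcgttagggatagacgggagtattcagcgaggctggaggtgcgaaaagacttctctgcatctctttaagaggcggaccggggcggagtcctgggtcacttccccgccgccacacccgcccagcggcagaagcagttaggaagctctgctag
Gclm: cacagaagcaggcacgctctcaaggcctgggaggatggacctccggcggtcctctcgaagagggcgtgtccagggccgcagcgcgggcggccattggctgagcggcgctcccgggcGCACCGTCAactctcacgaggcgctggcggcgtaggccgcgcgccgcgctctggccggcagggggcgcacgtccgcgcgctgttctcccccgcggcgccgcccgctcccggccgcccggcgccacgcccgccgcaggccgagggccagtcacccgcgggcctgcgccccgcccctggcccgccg
Gss: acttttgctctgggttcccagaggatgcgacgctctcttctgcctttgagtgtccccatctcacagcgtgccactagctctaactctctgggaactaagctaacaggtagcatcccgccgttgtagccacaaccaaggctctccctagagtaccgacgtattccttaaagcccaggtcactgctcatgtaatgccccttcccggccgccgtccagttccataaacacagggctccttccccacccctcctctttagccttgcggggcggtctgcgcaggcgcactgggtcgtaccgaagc

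The Slc7a11 window (chr3:50443564-50443863, - strand) held TGATGCAAA at -66 on its own strand and at -48 on the other strand, counted from the start to the first base of the match. This word occurred in 0.271% of the 32851 promoter windows of this length, and 2 matches occurred in 0.00609%, which is 2 windows. The Gclm window (chr3:122245307-122245606, + strand) held TGACNNNGC on the other strand at -134. The windows of Slc3a2 (chr19:8713848-8714147, - strand) and Gss (chr2:155592761-155593060, - strand) held neither word. The Slc3a2 window lies inside the GENCODE gene, which begins upstream at 8723369, and the sequence at that start was not examined. TGACNNNGC occurred in 12.4% of all windows and in 5 of the 9 windows of these genes, namely that of Gclm, that of Ggct at -174 and at 6, and 3 of the 4 windows of Ggt1. The longer form with A added at its end, which contains it, occurred in 3.04% of all windows and in 0 of these 9. A match describes the letters of this window and says nothing of binding.

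Ggct, Oplah and Ggt1 belong to the gamma-glutamyl cycle, in which glutathione is taken apart outside the cell and glutamate is recovered inside. Ggt1, which removes the gamma-glutamyl group at the cell surface, lies at chr10:75561604-75586200, + strand. Its libraries held 4, 0 and 1 counts in cont., and its level was 21.2, 29.2 and 24.1 CPM in Atg7-KO and 12.5, 7.40 and 1.23 in S351A, where it rested on 11, 6 and 1 counts. The rise in Atg7-KO was 76.2-fold in pooled counts (95% exact interval 32.2 to 237, counting error only) with an adjusted p of 1.27e-04 in edgeR's quasi-likelihood test. Of the 5 cont. counts 4 came from replicate 1, and the ratio was 342 without that library and 27.0 without cont. replicate 3. Its counts were low throughout, with at most 92 in a library, although its fitted change was second among the 9 genes to that of Slc7a11.

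Ggct, which releases 5-oxoproline from gamma-glutamyl amino acids, lies at chr6:54982580-54992950, - strand. Its level was 6.95, 19.6 and 13.2 CPM in cont., 33.4, 37.4 and 30.4 in Atg7-KO, and 46.8, 29.6 and 18.4 in S351A. The Atg7-KO livers were tight and above cont., and the S351A livers reached from within the cont. range to above every Atg7-KO liver. Ggct rose 2.47-fold in Atg7-KO (log2 1.30, SE 0.33, adjusted p 0.00806 by edgeR's quasi-likelihood test), and the call was lost after thinning all libraries to the smallest (log2 0.99, adjusted p 0.122, range over all alternatives 3.22e-04 to 0.122).

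Oplah, 5-oxoprolinase, turns 5-oxoproline back into glutamate and lies at chr15:76296601-76328015, - strand, where it overlaps Smpd5 and Exosc4 on the other strand. It was the gene that went the other way, at 127, 153 and 110 CPM in cont., 49.98, 57.4 and 49.5 in Atg7-KO, and 39.9, 64.1 and 60.0 in S351A. Both Cre groups lay below every cont. liver and overlapped each other. Oplah fell by 1.31 on the log2 scale in Atg7-KO (SE 0.22, adjusted p 6.12e-04 by edgeR's quasi-likelihood test), to 40.3% of the cont. mean. Thus Ggct, which makes 5-oxoproline, was called higher in Atg7-KO while Oplah, which consumes it, was called lower.

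Within groups, the 9 genes did not share one order of livers. In Atg7-KO, replicate 2 was the highest liver for 7 genes and replicate 1 was the lowest for 5, Gclc, Gclm, Gss, Gsr and Ggt1, but replicate 1 was the highest for both carrier chains. In S351A, replicate 1 was the highest and replicate 3 the lowest for the same 5 genes, Gsr, Slc7a11, Slc3a2, Ggct and Ggt1, and replicate 3 was the highest for Gclc, Gclm and Gss.

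Levels of different genes were compared as CPM per kilobase of exon. In cont., Gclc stood at 108 ± 25.1 (SD, n = 3), above Gsr at 33.0 ± 8.56, Gclm at 26.0 ± 5.86, Oplah at 22.3 ± 3.76, Gss at 13.0 ± 0.838 and Slc3a2 at 9.58 ± 1.02. Ggct at 1.71 ± 0.816, Ggt1 at 0.256 ± 0.420 and Slc7a11 at 0.0189 ± 0.0273 followed. The ranges of Gsr and Gclm, of Gclm and Oplah, and of Ggt1 and Slc7a11 overlapped, and the other neighbours in this order were separate. In Atg7-KO the order was Gclc (266), Gsr (120), Gclm (45.8), Gss (42.0), Slc3a2 (14.6), Slc7a11 (11.7), Oplah (8.96), Ggt1 (7.28) and Ggct (4.36). There the ranges of Slc7a11 (9.50 to 16.2) and Slc3a2 (11.6 to 19.6) overlapped, while Oplah had moved from the fourth to the seventh place and overlapped both neighbours. In S351A, Slc7a11 was at 3.31 ± 4.44 and Slc3a2 at 12.1 ± 6.26. The place of Gss depends on the length used, since its annotated exons sum to 5915 bases and its longest coding transcript has 1963, and with the latter it stood second in all 3 groups. With that length, Oplah (31.8) also stood above Gclm (29.2) in cont.

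The comparison of S351A with Atg7-KO asked what the p62 mutation changed when Atg7 was absent in both groups. None of the 9 genes was called by edgeR's quasi-likelihood test, in which 0.00893% of all tested genes, the single gene Tekt5, was called lower and 0% higher. All S351A livers lay below all Atg7-KO livers for 6 of the 9 genes, Gclc, Gclm, Gss, Gsr, Slc7a11 and Ggt1, a separation seen in 9.23% of all tested genes. The same 6 had an unadjusted p under 0.05, which 3.22% of all tested genes reached in this direction. Among them Ggt1, at 11, 6 and 1 counts in S351A, passed the filter on low counts through Atg7-KO, where it is high. DESeq2 called 2 of the 9, Gclc (log2 -0.91, adjusted p 0.0462) and Gsr (-1.00, 0.0305), and limma-voom called 0, beside 0.357% and 0% of all tested genes. The median log2 difference of the 9 genes was -0.76, beside 0.01 over all tested genes.

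The S351A mean was 53.1% of the Atg7-KO mean for Gclc, 59.0% for Gclm, 49.8% for Gsr and 71.8% for Gss. The 95% intervals of the log2 difference were -1.46 to -0.36 for Gclc, -1.28 to -0.24 for Gclm, -1.54 to -0.47 for Gsr and -0.89 to -0.06 for Gss. In edgeR's quasi-likelihood test their adjusted p-values were 0.466, 0.612, 0.364 and 0.715. These 4 genes of the ligase, synthetase and reductase thus differed in 3 of 3 S351A livers in the same direction, by amounts that did not pass the adjustment.

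For Slc7a11 and Ggt1, the S351A means were 28.2% and 28.4% of the Atg7-KO means. The log2 difference was -1.81 for Slc7a11 (95% interval -3.27 to -0.36, adjusted p 0.696 by edgeR's quasi-likelihood test) and -1.79 for Ggt1 (-3.16 to -0.41, adjusted p 0.692). Slc7a11 turned on 1 liver, since without S351A replicate 1 its difference was -3.97 (adjusted p 0.0341) and it became the only one of the 9 genes called, beside 0.00856% of all genes then tested. Replicate 1 is also the only S351A liver whose genotype label and title name the same alleles. The label of the other copy reads S351A, S352A and S353A in replicates 1, 2 and 3, and the study describes no S352A or S353A allele. Whether this bears on the spread was not tested. Without the filter on low counts, Slc7a11 (-1.87, adjusted p 0.00159), Gsr (-1.06, 0.0428) and Ggt1 (-1.84, 0.0370) were called, beside 0.514% of the 19081 genes then tested. Over all alternatives the adjusted p ranged from 0.00159 to 1.00 for Slc7a11, from 0.0305 to 1.00 for Gsr and from 0.0370 to 1.00 for Ggt1.

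Slc3a2, Ggct and Oplah overlapped between S351A and Atg7-KO. Their S351A means were 82.8%, 93.6% and 105% of the Atg7-KO means. The 95% intervals of the log2 difference, -1.00 to 0.45, -0.85 to 0.67 and -0.44 to 0.56, leave room for changes in either direction. Nqo1 differed by -1.13 (adjusted p 0.467 by edgeR's quasi-likelihood test), also with all S351A livers below all Atg7-KO livers. Of 41 tested markers of hepatocytes and other cell types, edgeR's quasi-likelihood test called 0 in this comparison. Of the 41, 4 had an unadjusted p under 0.05 in this test, beside 6.60% of all tested genes. In every S351A liver 5 of the 41, or 12.2%, lay lower than in every Atg7-KO liver, beside 9.23% of all tested genes. A further 3 lay higher, and 33 overlapped. The log2 differences of the 5 were -1.09 for Cftr of ductular cells, which had 3 counts in each S351A library, -0.61 for Col3a1 and -0.43 for Col1a2 of the matrix, -0.70 for Lyve1 of endothelium and -0.50 for Cd5l of macrophages. The 3 higher were Marco of macrophages (1.28), Alas2 of erythroid cells (0.95) and Apoa1 of hepatocytes (0.19). These 8 were chosen after their values were seen, and the ductular marker sums overlapped. The part of these cells in the values of the 9 genes was not tested.

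**Figure D3:**
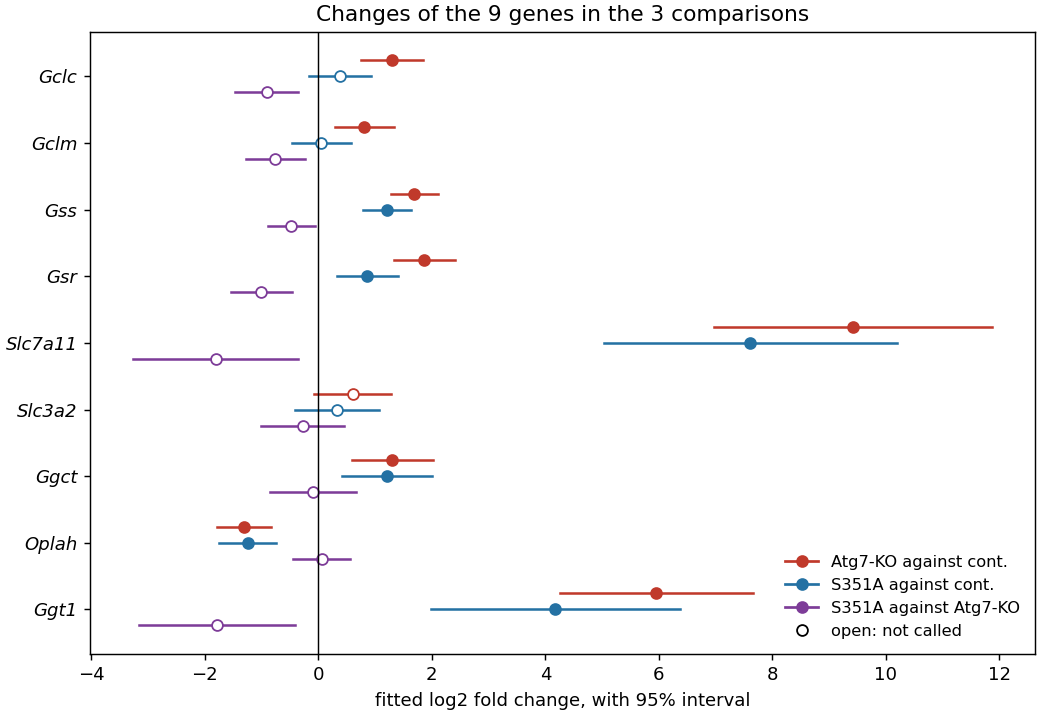
Fitted log2 fold change of each of the 9 genes (horizontal axis) in 3 comparisons, as a point with its 95% interval, filled where the gene was called by edgeR's quasi-likelihood test and open otherwise. Gss, Gsr, Slc7a11, Ggct and Ggt1 stay above 0 in S351A against cont., Oplah stays below, and every point of S351A against Atg7-KO is open. The fitted values of Slc7a11 and Ggt1 against cont. rest on 3 and 5 counts in cont.

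Compared with cont., which shares its libraries with the first comparison, S351A livers had 5 of the 9 genes called higher, Gss, Gsr, Slc7a11, Ggct and Ggt1, and Oplah called lower. By the same rule, 15.6% of all tested genes were called higher and 13.0% lower. Gclc, Gclm and Slc3a2 were not called. Of the 9 genes, 3 were separated from cont. in the higher direction, Gss, Gsr and Slc7a11, beside 19.6% of all tested genes, and Oplah in the lower direction, beside 18.4%. Ggct and Ggt1 were called although livers of the groups overlapped. Here too, Slc7a11 and Ggt1 had passed the filter only through groups other than cont.

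Gss and Gsr were called in this comparison, and the ligase subunits were not. Gclc was 1.31-fold cont. (log2 0.39, 95% interval -0.16 to 0.93, adjusted p 0.273) and Gclm 1.04-fold (log2 0.05, -0.47 to 0.57, adjusted p 0.898) in edgeR's quasi-likelihood test. Gss was 2.32-fold higher than cont. (log2 1.21, SE 0.19, adjusted p 8.12e-04) and Gsr 1.81-fold higher (log2 0.86, SE 0.25, adjusted p 0.0211) in the same test. No test of this difference between genes was made. With total library size as the scaling, Gclc was called as well (log2 0.88, adjusted p 0.0181), and likewise without the 20 genes with most counts (0.78, adjusted p 0.0316, range over all alternatives 0.0181 to 0.612).

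Slc7a11 in S351A was 251-fold cont. in pooled counts (95% exact interval 83.7 to 1232, counting error only), on 120 counts of which 103 came from replicate 1. Leaving out S351A replicate 1 gave 54.6, and leaving out replicate 3 or 2 of cont. gave 106 or 615. Ggt1 was 22.6-fold cont. (8.07 to 77.7), on 18 against 5 counts, and 7.99-fold without cont. replicate 3, 101-fold without cont. replicate 1 and 13.5-fold without S351A replicate 1, with an adjusted p of 0.00889 in edgeR's quasi-likelihood test. Ggct was 2.32-fold cont. (log2 1.21, SE 0.37, adjusted p 0.0264), and Oplah fell by 1.25 on the log2 scale (SE 0.23, adjusted p 0.00198). Without S351A replicate 1, only 3 of the 9 genes were called, because Gsr (adjusted p 0.0845), Ggct (0.185) and Ggt1 (0.0834) no longer passed. The share of all tested genes called in either direction was 18.0% in that fit and 28.6% with all libraries. The adjusted p over all alternatives ranged from 0.00196 to 0.0845 for Gsr, from 0.00373 to 0.259 for Ggct and from 1.05e-05 to 0.102 for Ggt1.

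Glutathione depends on further genes that supply cysteine, carry amino acids or move glutathione, and 36 of these in 5 lists were examined, of which 25 passed the filter on low counts. In Atg7-KO against cont., 8 of the 25 were called higher and 9 lower, beside 19.9% and 18.1% of all tested genes, and their median log2 fold change was 0.02. The direction differed between the lists. Of 8 genes of cysteine supply and use, 6 were called lower and 1 higher, with a median of -1.48, whereas of 5 carriers of cystine, cysteine and glutamate 3 were called higher and 1 lower.

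Cth and Cbs, the enzymes of transsulfuration that turn homocysteine into cysteine, both fell. Cth ranged from 311 to 901 CPM in cont. and from 61.7 to 84.5 in Atg7-KO, a fall by 2.77 on the log2 scale (adjusted p 5.38e-04 by edgeR's quasi-likelihood test). Cbs fell by 1.70, from 648, 615 and 511 CPM to 193, 170 and 183. Mpst and Got1, which act in the breakdown of cysteine, fell by 2.01 and 1.59. Both transsulfuration enzymes were thus called lower in the comparison in which the cystine carrier chain Slc7a11 was called higher. Hepatocyte markers also fell, 6 of 7 in number with a median of -1.22, and their part in the lower levels was not tested.

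Among the carriers, Slc1a1, which takes up glutamate and cysteine, was at 2, 2 and 3 counts in cont. and at 138, 203 and 155 CPM in Atg7-KO, 362-fold in pooled counts (95% exact interval 175 to 902, counting error only), or 180-fold without cont. replicate 3. Slc1a4 and Slc1a5, exchangers of neutral amino acids, rose by 4.50 and 1.74 on the log2 scale. Slc1a2, a glutamate carrier known from the hepatocytes around the central vein, went from 102, 320 and 147 CPM to 1.61, 2.85 and 2.27, a fall by 6.42 (called by edgeR's quasi-likelihood test). Within one carrier family, Slc1a1 and Slc1a2 thus moved in opposite directions. Of the other light chains of Slc3a2, 2 of 5 passed the filter, and Slc7a7 and Slc7a8 rose by 1.30 and 1.54. Of 4 genes of glutathione transport, 2 rose, Abcc4 by 5.51 and Abcc1 by 2.77, both export pumps that can carry glutathione or its conjugates. Of 6 genes of glutathione breakdown, 2 fell, Chac2 by 1.64 and Lap3 by 1.48, and 0 were called higher, although Anpep (log2 0.48, adjusted p 0.0745) and Cndp2 (0.47, adjusted p 0.0761), both peptidases chosen for mention after their values were seen, lay higher in every Atg7-KO liver than in every cont. liver.

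**Figure D4:**
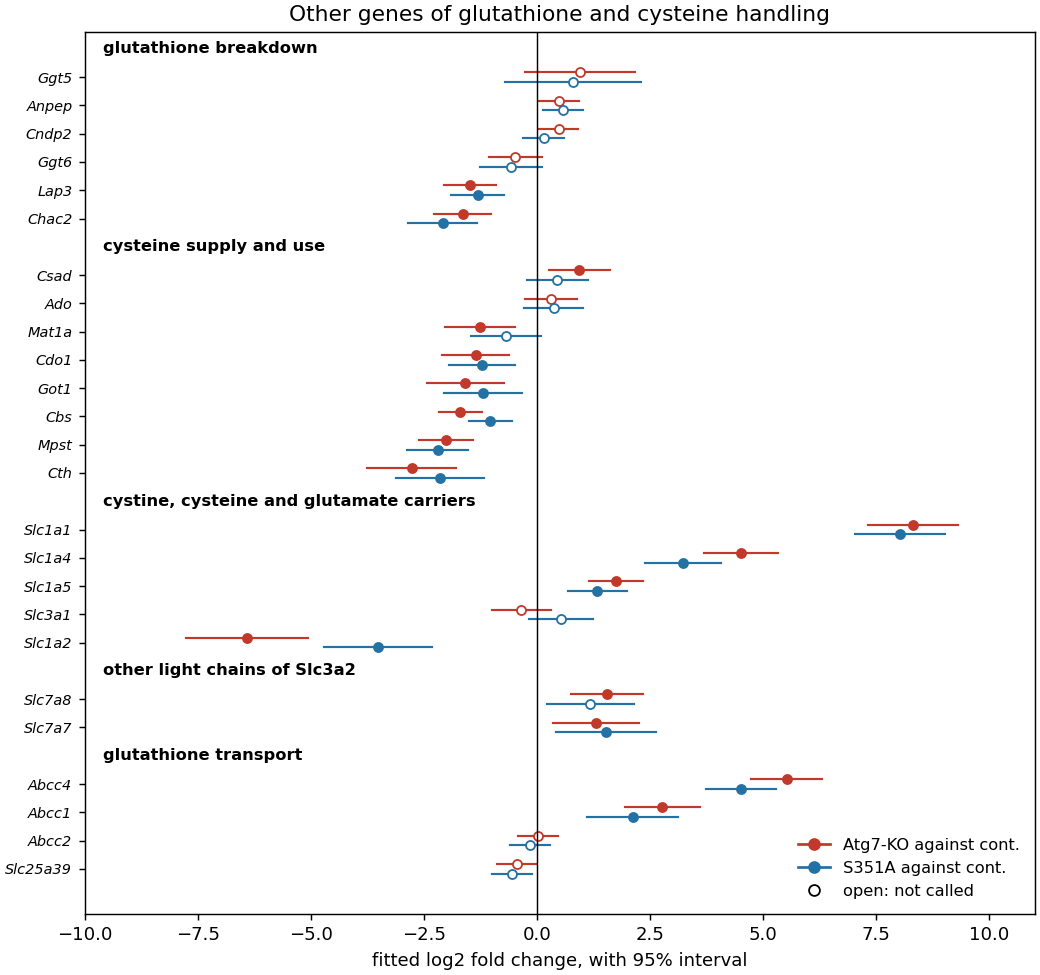
Fitted log2 fold change with its 95% interval (horizontal axis) of 25 further genes of glutathione and cysteine handling, ordered within 5 lists, in Atg7-KO and S351A against cont., filled where called. Genes of cysteine supply and use lie mostly to the left, whereas Slc1a1, Slc1a4, Abcc4 and Abcc1 lie far to the right in both comparisons.

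In S351A against Atg7-KO, 0 of these 25 genes was called by edgeR's quasi-likelihood test, 5 had an unadjusted p under 0.05, beside 6.60% of all tested genes, and DESeq2 called 1, Slc1a2 (log2 2.91, SE 0.64, adjusted p 0.00527). Slc1a2 stood at 6.84, 8.63 and 34.3 CPM in S351A, above every Atg7-KO liver and below every cont. liver. Slc1a1, at 131, 180 and 98 CPM, overlapped Atg7-KO. In S351A against cont., 6 of the 25 were called higher and 8 lower, beside 15.6% and 13.0% of all tested genes. Cbs was at 245, 271 and 346 CPM in S351A, between the other groups without overlap.

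The genes with the most similar pattern were found by the distance between log2 CPM profiles over the 9 libraries, each set relative to the mean of cont., among 9638 genes with at least 10 CPM in some group. Nearest to Gclc were Rnf26 (distance 0.64), the glutathione transferase Gsta2 (0.72) and Dnajc10 (0.73), beside a median distance of 3.04. Nearest to Gclm were Nabp1 (0.50), the mitochondrial peroxiredoxin Prdx3 (0.53) and the iron exporter Slc40a1 (0.54). Nearest to Gsr were Epn2 (0.68), Fem1b (0.80) and Fth1 (0.83), the ferritin heavy chain, which went from a mean of 1702 CPM in cont. to 5571 in Atg7-KO and 3436 in S351A. Nearest to Slc7a11 were Elovl7 (3.10), Styk1 (3.16) and Tekt5 (3.28), beside a median distance of 15.9. All profiles share the same 9 libraries, and the distances are descriptions without a test.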

How the data were processed

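RNA was measured in 9 mouse livers, 3 per group, and libraries were assigned by their titles. The authors trimmed single-end reads of 75 bases with Trim Galore, aligned them with STAR against mm10 and quantified genes by RSEM, and versions, annotation and strand setting are not given in the sources used here. The deposited values are expected counts (estimated counts without scaling between libraries), of which 4.40% to 7.75% per library were not whole, and all were rounded. There were 0 unused columns of samples.

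Rounded counts were tested in edgeR 4.0.16 (R 4.3.3, filterByExpr with a minimum count of 10 and total of 15, TMM, 1 quasi-likelihood fit to all 9 libraries, Benjamini-Hochberg adjustment over 11199 genes). SEs are those implied by the p-values. Ratios within libraries had 2 added to each count and were tested with scipy 1.17.1. Positions and exon lengths came from GENCODE M21 (mm10), and promoters from RefSeq (GRCm38.p6). Scripts were tested on simulated data. Depth ranged from 713835 to 15426600 counts, and intervals on counts reflect counting error alone, as PCR copies could not be told from separate molecules. The titles name separate mice, and no batch was given.

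The members and the lists were chosen with earlier results of these data known. The text names all 9 members, Atg7, Nqo1 and other genes of the study, up to 4 called genes of each further list with the largest changes in Atg7-KO against cont., and the 3 genes nearest to Gclc, Gclm, Gsr and Slc7a11. Sqstm1 (log2 0.38, adjusted p 0.169), Keap1 (0.28, 0.335) and Nfe2l2 (-0.77, 0.0782) were not called in that comparison. The alternatives were RLE, total or top-gene-free scaling, other filters and thresholds, DESeq2 1.42.0, limma-voom (limma 3.58.1), the 6 compared libraries, replicate block, sex as a covariate, thinning and leaving out each library. Deviations from group means correlated with r from 0.16 to 0.24 in the 3 same-numbered pairs of cont. and S351A. The range was -0.04 to 0.25 in those of cont. and Atg7-KO and 0.074 to 0.31 in those of Atg7-KO and S351A. The replicate block alternative treated same-numbered libraries as paired in all 3 comparisons. Libraries with different numbers had r from -0.26 to 0.21. The labels do not say what a number shares. Ratios of pooled counts without 1 library were added after the data were seen. Livers with other p62 alleles are not analysed here.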

Additional observations from a re-analysis of the deposited data

How the results depend on the processing

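Of 533 alternative values of the 9 genes, 497 kept direction and call, 16 lost a call, 10 gained one and 10 changed sign. The number called was 7 to 8 in Atg7-KO against cont. and 3 to 6 in S351A against cont. when each library was left out in turn, and 0 to 1 in S351A against Atg7-KO, with the lowest value in the second and the highest in the third comparison reached without S351A replicate 1. The share of all tested genes called in these fits was 28.2% to 38.4%, 18.0% to 30.2% and 0% to 0.0259%. In S351A against Atg7-KO, 3 were called without a filter and 2 with DESeq2, and of the other pathway genes DESeq2 called 1. The cause was not tested. With at least 10 counts required in every library, Slc7a11 and Ggt1 could not be tested.

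The sign changes all concerned differences that were not called. When each library was left out in turn, the log2 difference of S351A to Atg7-KO ranged from -0.72 to 0.045 for Slc3a2, turning without Atg7-KO replicate 1 (3.37e-04) or S351A replicate 3 (0.045), from -0.50 to 0.18 for Ggct, turning without S351A replicate 3 (0.18), and from -0.065 to 0.25 for Oplah, turning without S351A replicate 2 (-0.065) or 3 (-0.016). The difference of S351A to cont. ranged from -0.11 to 0.25 for Gclm, turning without cont. replicate 1 (-0.049), cont. replicate 2 (-0.068) or S351A replicate 3 (-0.11), and from -0.13 to 0.63 for Slc3a2, turning without S351A replicate 1 (-0.13). Gclm was at -0.056 with no filter.

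With total library size, the median of all genes shifted by 0.545 for Atg7-KO and 0.493 for S351A relative to cont. With the replicate block, 8, 0 and 6 of the 9 genes were called in Atg7-KO against cont., S351A against Atg7-KO and S351A against cont., as without it, beside 38.5%, 0.00893% and 30.4% of all tested genes, and the paired ratios of Gclm to Gclc had p of at least 0.25, the smallest that 3 pairs allow in an exact test. With the longest coding transcript as length, Gclc was 5.68-fold Gclm per kilobase in Atg7-KO in place of 5.82-fold. Of the promoter windows of these genes, 0 held the motif with A added at its end and 1 held TGATGCAAA, a word added after the data were seen, in place of 5.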
